A study of Homo sapiens with 6 samples.

Results

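Interferon-stimulated genes and RNA sensors were examined in TC28a2 cells, an immortalized line of human chondrocytes, the cells that make and maintain cartilage. The set held 59 genes of the interferon response, found by gene symbol in a table of 60623 genes, and each symbol matched 1 row. TC28a2 cells were treated for 24 hours with 2 μM mocetinostat, an inhibitor of the class I histone deacetylases, or with DMSO, the solvent, as the control. Each condition had 3 samples, which the study describes as coming from independent experiments, and the comparison asked how mocetinostat changed transcription in chondrocytes. No interferon, double-stranded RNA or virus was part of either treatment as described, and a single immortalized line grown in culture was used, which limits how far it stands for cartilage.

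Totals were 4873426 to 11031132 counts in the DMSO samples and 1619344 to 5089542 in the mocetinostat samples, so that weakly expressed genes were measured less precisely after mocetinostat. A group with at most 3 counts in all was treated as being at the limit of measurement, which corresponds to 0.133 CPM (counts scaled to library size) for DMSO and 0.331 CPM for mocetinostat. Of 9 chondrocyte markers, 7 passed the filter on low counts. The summed level of all 9 was 116 to 140 CPM in DMSO and 254 to 291 CPM in mocetinostat. SOX9 made up most of this sum, at means of 106 and 180 CPM. The matrix genes were low in DMSO, with ACAN highest at 4.72 CPM (33.3 CPM in mocetinostat) and COL2A1 at 2.20 CPM (28.7 CPM). The summed levels of markers of other cell types stood, in DMSO against mocetinostat, at 5.07 to 7.70 against 39.0 to 45.6 CPM for 4 endothelial genes and at 6.04 to 10.2 against 10.5 to 15.5 CPM for 8 leukocyte genes, of which 6 had at most 15 counts in every sample. Of the 4 endothelial genes, 3 had higher means in mocetinostat, with KDR at 0.337 CPM in DMSO and 24.4 CPM in mocetinostat. VWF was at 1.53 and 10.4 CPM and PECAM1 at 1.27 and 5.51 CPM, while CDH5 was at 3.04 and 3.12 CPM. Among the leukocyte genes, CD14 was at 0.915 and 7.46 CPM and CSF1R at 4.58 and 2.71 CPM. The part of these shifts in the results was not tested. In bulk RNA, fewer cells that express a gene and less of its RNA per cell cannot be told apart.

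Cells sense foreign RNA through cytosolic helicases such as RIG-I and MDA5 and through endosomal receptors such as TLR3. These signal through adaptors to the IRF3 and IRF7 transcription factors and to the gene for interferon beta. Type I interferon then binds the IFNAR1 and IFNAR2 receptor, JAK kinases phosphorylate STAT factors such as STAT2, and STAT2 joins IRF9 in the ISGF3 complex, which binds the interferon-stimulated response element (ISRE) in the promoters of antiviral genes. Type II interferon uses the IFNGR1 and IFNGR2 receptor and acts through promoters that hold the gamma-activated site (GAS).

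Of the 59 genes, 49 had enough reads to be tested. Values are CPM scaled with TMM factors, and a gene is said to have risen or fallen where its adjusted p was under 0.05 in the quasi-likelihood test of edgeR, the Benjamini-Hochberg adjustment covering all 13966 genes tested. It was called upregulated or downregulated where the log2 fold change was also beyond 1 in size, the thresholds of the study, so that a called gene differed by more than 2-fold. Called upregulated were 14 of the 49 genes (28.6%), against 20.2% of all genes tested, and 1 gene (2.04%) was called downregulated, against 8.18%. With no limit on size, 26 rose (53.1%, against 32.9% of all genes), 9 fell (18.4%, against 31.4%) and 14 did not pass the test. In 23 of the 49 every mocetinostat sample lay above every DMSO sample (46.9%, against 33.7%), and in 9 every one lay below (18.4%, against 32.8%). The median log2 fold change was 0.39 over the 49 genes and -0.0021 over all genes tested. Under scaling to GAPDH, which took 2953 to 3132 CPM in DMSO and 2034 to 2187 CPM in mocetinostat, log2 fold changes moved up by a median of 0.54, and 24 genes were then called upregulated and 0 downregulated, against 4425 and 284 among all genes.

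**Figure D1:**
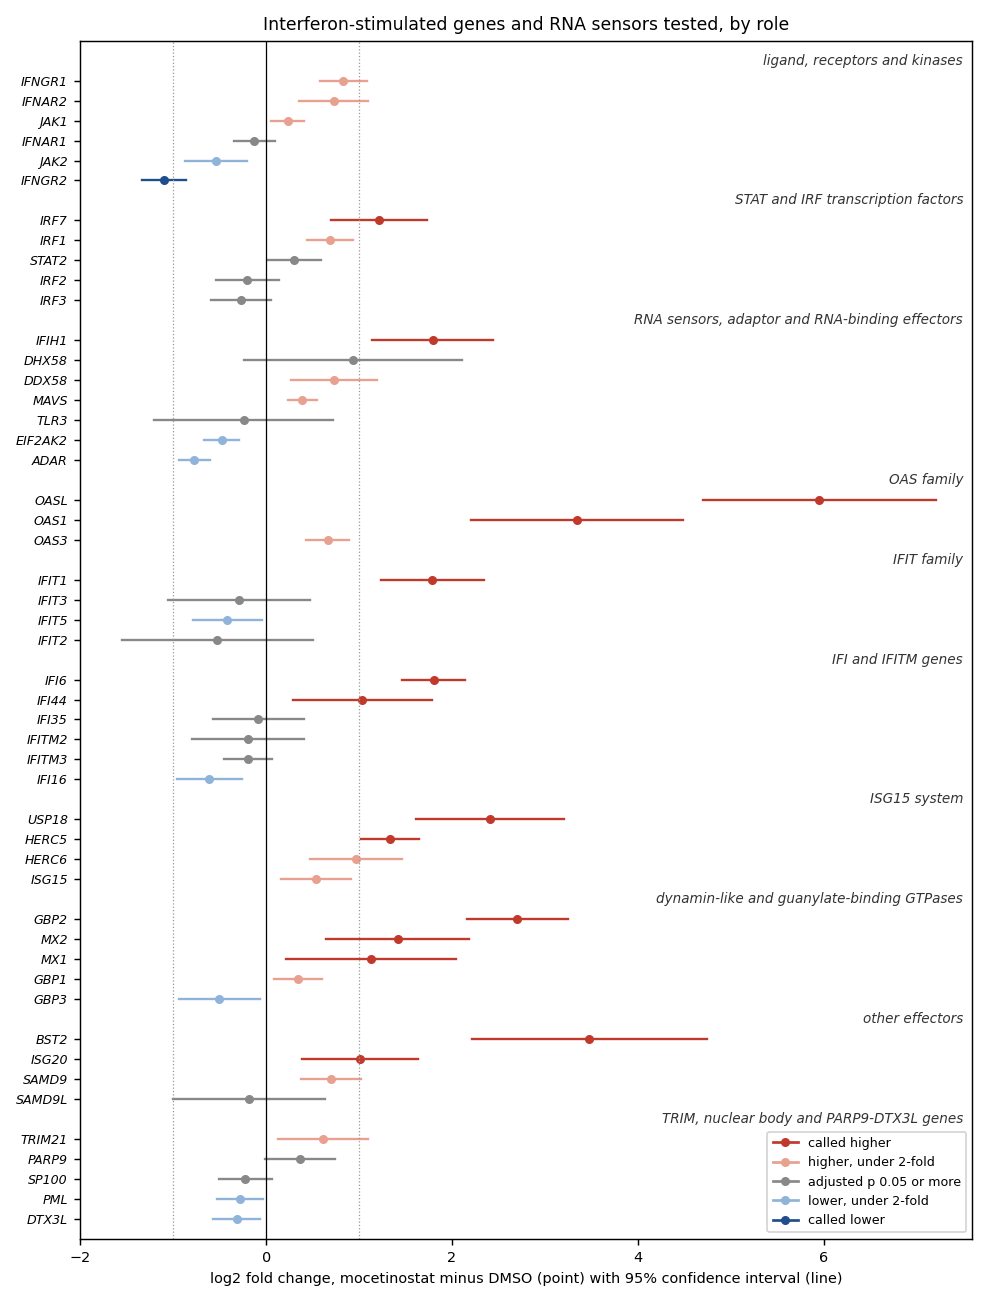
Log2 fold change of each tested gene, mocetinostat over DMSO, with 95% confidence intervals, grouped by role on the vertical axis and colored by the outcome of the edgeR test. OASL lies farthest to the right at 5.95, and IFNGR2, at -1.10, is the 1 gene called downregulated.

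The gene for interferon beta was not detected at this depth. IFNB1, on chromosome 9 (GRCh38, 21077104 to 21077942), had 0 counts in each of the 6 samples, which allows up to 0.133 CPM in DMSO and 0.331 CPM in mocetinostat. Of 20 other interferon genes, 10 had no count in any sample and none had more than 4 counts in a sample.

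The receptor genes changed in both directions. IFNAR1, the low-affinity chain of the type I receptor, was measured at 139, 101 and 100 CPM in DMSO replicates 1 to 3 and at 104, 102 and 107 CPM in the mocetinostat replicates. The groups overlapped and the log2 fold change of -0.13 ± 0.11 (SE, n = 3 and 3; adjusted p = 0.308 in the edgeR test) was within the spread. IFNAR2, the high-affinity chain, stood at 17.7, 15.2 and 16.2 CPM in DMSO and at 27.8, 26.0 and 27.8 CPM in mocetinostat. It rose with no overlap between the groups (log2 fold change 0.73 ± 0.18, adjusted p = 0.000441), but did not pass with no filter (0.47, adjusted p = 0.051) or at equal depth (0.62, adjusted p = 0.21). Of its exon bases, 14.7% are also annotated to IFNAR2-IL10RB and 13.0% lie under IL10RB-DT on the opposite strand.

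IFNGR2, the signaling chain of the type II receptor on chromosome 21 (33403413 to 33479348), was the downregulated gene. Its level was 115, 122 and 99.9 CPM in DMSO and 51.9, 53.3 and 51.8 CPM in mocetinostat, so that every treated sample was far below every control (112 ± 11.3 and 52.3 ± 0.824 CPM, SD, n = 3 each). It was 2.15-fold lower (log2 fold change -1.10 ± 0.12, 95% confidence interval -1.34 to -0.87, adjusted p = 4.69e-13), with 14.97% of its exon bases under TMEM50B on the opposite strand. IFNGR1, the ligand-binding chain, rose instead, by 0.83 ± 0.13 on the log2 scale (adjusted p = 2.51e-08), from 38.7 to 47.4 CPM in DMSO to 74.4 to 78.3 CPM in mocetinostat. The kinase gene JAK2 fell by 0.54 ± 0.17 on the log2 scale (adjusted p = 0.00362) and JAK1 rose by 0.23 ± 0.09 (adjusted p = 0.0214). IFNGR2 stayed lower but inside 2-fold with GAPDH scaling (-0.56) and with libraries thinned to equal depth (-0.91), while JAK2 turned to 0.0050 with GAPDH scaling. JAK2 missed the threshold without DMSO replicate 1 (-0.38, adjusted p = 0.0578), and JAK1 missed it without DMSO replicate 2 (0.20, 0.108), DMSO replicate 3 (0.17, 0.127), mocetinostat replicate 1 (0.18, 0.17) or mocetinostat replicate 3 (0.22, 0.075). IFNAR1 changed sign without DMSO replicate 1 (0.037).

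STAT2 and IRF9, which meet in ISGF3, were measured at very different depths. STAT2 was found at 50.6, 36.2 and 34.8 CPM in DMSO and at 51.3, 58.3 and 43.9 CPM in mocetinostat, and DMSO replicate 1 lay among the treated samples. Its log2 fold change of 0.30 ± 0.14 did not pass (adjusted p = 0.0557), but did without DMSO replicate 1 (0.50, adjusted p = 0.00206) or mocetinostat replicate 3 (0.38, 0.0274). IRF9, the DNA-binding subunit, was counted 36, 7 and 12 times in DMSO and 6, 2 and 4 times in mocetinostat, too few for the test, and its CPM ranged from 1.46 to 3.26 and from 1.19 to 1.66. Of the IRF9 exon bases, 23.9% are also annotated to another protein-coding gene on the same strand.

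Among the interferon regulatory factors, IRF7 was called upregulated. It is the factor that amplifies type I interferon production and is itself an interferon-induced gene, on chromosome 11 (612553 to 615983). IRF7 was at 5.88, 6.46 and 8.11 CPM in DMSO and at 14.9, 16.1 and 16.6 CPM in mocetinostat. The groups were well apart, 2.32-fold on the fitted scale (log2 fold change 1.21 ± 0.26, confidence interval 0.70 to 1.73, adjusted p = 3.33e-05), although the call was lost with no filter on low counts (0.96), with a test against 2-fold (adjusted p = 0.32) and at equal depth (0.77, adjusted p = 0.303). IRF1, a factor induced by both interferon types, rose from 44.7 to 52.5 CPM in DMSO to 73.0 to 85.8 CPM in mocetinostat (0.69 ± 0.12, adjusted p = 1.53e-06), with 22.9% of its exon bases under the antisense gene IRF1-AS1. IRF3, which the sensors activate first, and IRF2, a repressor of interferon genes, had log2 fold changes of -0.27 (adjusted p = 0.143) and -0.20 (adjusted p = 0.302). Without DMSO replicate 1, IRF3 passed at -0.47 (adjusted p = 0.00722). Of the IRF3 exon bases, 19.35% lie under BCL2L12 on the opposite strand.

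The RNA sensors differed in whether they passed the test, and differences between them were not tested. IFIH1 encodes MDA5, the helicase that recognizes long double-stranded RNA, and lies on chromosome 2 (162267074 to 162318684). IFIH1 was at 3.80, 2.50 and 3.24 CPM in DMSO and at 14.3, 9.30 and 9.12 CPM in mocetinostat, so that the lowest treated sample was above the highest control. It was called upregulated, 3.46-fold (log2 fold change 1.79 ± 0.33, confidence interval 1.14 to 2.44, adjusted p = 2.23e-06). DDX58 encodes RIG-I, which recognizes short RNA with a 5′ triphosphate. Its values were 10.4, 14.8 and 8.25 CPM in DMSO and 15.9, 21.1 and 19.1 CPM in mocetinostat. It rose with no overlap but by less than 2-fold (0.73 ± 0.23, adjusted p = 0.0045), and it did not pass with no filter (0.48, adjusted p = 0.128), in DESeq2 (0.70, 0.0659) or at equal depth (0.28, 0.564). DHX58, which encodes the regulator LGP2, had a log2 fold change of 0.93 ± 0.59 (adjusted p = 0.161). Its interval, -0.24 to 2.11, includes the estimates of both IFIH1 and DDX58.

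TLR3, the endosomal receptor for double-stranded RNA, was low in both conditions, at 3.71, 2.08 and 2.95 CPM in DMSO and 2.38, 1.86 and 3.32 CPM in mocetinostat. The groups overlapped, and the interval of the log2 fold change, -1.21 to 0.72, left differences of either sign (-0.24 ± 0.48, adjusted p = 0.678). MAVS, the mitochondrial adaptor that RIG-I and MDA5 share, was far more abundant, at 293, 287 and 276 CPM in DMSO and 371, 375 and 377 CPM in mocetinostat. It rose by a small and even amount (0.39 ± 0.08, adjusted p = 1.01e-05). MAVS did not pass with no filter on low counts (0.14, adjusted p = 0.273), a setting that also changes the TMM factors.

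Both RNA-binding effectors of the group fell. EIF2AK2 encodes PKR, the kinase that halts translation on binding double-stranded RNA. It was at 168, 162 and 159 CPM in DMSO and at 116, 121 and 115 CPM in mocetinostat. The samples of each condition were close together (163 ± 4.49 and 117 ± 3.51 CPM, SD, n = 3 each; log2 fold change -0.48 ± 0.10, adjusted p = 1.07e-05), but the sign turned with GAPDH scaling (0.054). ADAR, the enzyme that edits adenosines in double-stranded RNA and so keeps cellular RNA from being sensed, was at 348, 322 and 351 CPM in DMSO and at 205, 191 and 199 CPM in mocetinostat. All 3 treated samples were below all 3 controls, 1.71-fold on the fitted scale (log2 fold change -0.77 ± 0.08, adjusted p = 3.65e-13), and it was also lower with GAPDH scaling (-0.24).

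The OAS genes encode sensors of double-stranded RNA that make the 2′-5′ oligoadenylate activator of RNase L, and OASL, a relative without that activity, promotes RIG-I signaling. OASL, on chromosome 12 (121017763 to 121039246), had the largest log2 fold change of the tested members. It was counted 1, 2 and 0 times in DMSO and 40, 20 and 24 times in mocetinostat, although the treated libraries were shallower (0.0905, 0.416 and 0 against 7.93, 12.4 and 9.95 CPM). The 3 and 84 counts summed per condition gave a depth-corrected ratio of 69.9 (exact 95% interval 23.1 to 346, counting error only). The fitted log2 fold change of 5.95 ± 0.63 (adjusted p = 2.9e-13) depends on the prior count of the fit, with so few control reads.

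OAS1, on the same chromosome (112905856 to 112933219), had 3, 2 and 6 counts in DMSO and 37, 8 and 6 in mocetinostat, that is 0.271, 0.416 and 0.884 CPM against 7.34, 4.96 and 2.49 CPM. The groups did not overlap and the treated samples spread over about 3-fold. The ratio of the summed counts was 11.6 (5.96 to 24.6), and the log2 fold change was 3.35 ± 0.57 (adjusted p = 5.45e-07). OAS3, which lies beside OAS1 and was far more abundant, rose from 64.3, 57.9 and 53.9 CPM to 93.4, 96.7 and 90.3 CPM (0.66 ± 0.12, adjusted p = 8.89e-07). The third neighbour, OAS2, had at most 4 counts in any sample and was not tested.

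IFIT1 binds viral RNA that lacks the host's cap methylation, and the 4 IFIT genes of the set lie in a cluster on chromosome 10 (89283694 to 89421605). IFIT1 was at 6.24, 5.41 and 3.39 CPM in DMSO and at 13.3, 21.7 and 20.3 CPM in mocetinostat. All treated samples were above all controls, 3.45-fold on the fitted scale (log2 fold change 1.79 ± 0.28, confidence interval 1.23 to 2.34, adjusted p = 5.06e-08). IFIT3 stood at 4.52, 4.79 and 6.48 CPM in DMSO and at 4.16, 2.48 and 5.80 CPM in mocetinostat, overlapping, with a log2 fold change of -0.29 ± 0.38 (interval -1.05 to 0.47, adjusted p = 0.52). IFIT2 was likewise not past the test (-0.53 ± 0.52, interval -1.55 to 0.50, adjusted p = 0.381). IFIT5 passed narrowly on the lower side (-0.42 ± 0.19, adjusted p = 0.0427) and turned sign with GAPDH scaling (0.12). It was not past the threshold with RLE size factors (adjusted p = 0.0536), or without DMSO replicate 1 (0.108), DMSO replicate 2 (0.0664), mocetinostat replicate 1 (0.0926) or mocetinostat replicate 3 (0.146).

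Sequence upstream of these genes is shown because neighbouring genes with the same promoter element had different values here. The ISRE core, that is GAAA, then 2 bases of any kind, then GAAA, was searched on both strands in RefSeq windows of GRCh38.p14 that run from 250 bases before to 50 after a gene's start, where 45 of the 59 genes had a window. In the stretches below, printed 5′ to 3′ on the strand of the gene, capitals mark the matches, which begin and end with TTTC where they lie on the other strand, and overlapping matches run together. No exon of GENCODE release 44 lies in any of the stretches.
IFIT1, chr10:89392467-89392544, plus strand: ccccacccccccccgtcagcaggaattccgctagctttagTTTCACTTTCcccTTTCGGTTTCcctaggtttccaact
IFIT3, chr10:89327801-89327899, plus strand: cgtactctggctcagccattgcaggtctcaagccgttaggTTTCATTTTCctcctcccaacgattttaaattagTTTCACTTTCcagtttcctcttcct
IFI6, chr1:27672261-27672388, minus strand: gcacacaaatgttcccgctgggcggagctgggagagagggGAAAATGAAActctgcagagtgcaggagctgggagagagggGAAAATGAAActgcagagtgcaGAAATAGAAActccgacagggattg
HERC5, chr4:88456954-88457069, plus strand: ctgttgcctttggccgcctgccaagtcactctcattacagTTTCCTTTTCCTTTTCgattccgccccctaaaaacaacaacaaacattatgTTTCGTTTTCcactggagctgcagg
ISG15, chr1:1013344-1013414, plus strand: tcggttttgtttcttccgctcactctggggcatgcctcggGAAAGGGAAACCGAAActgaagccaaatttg

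IFIT1 and IFIT3 both held the match TTTCACTTTC, with log2 fold changes of 1.79 and -0.29. IFIT5 held 3 matches near its start, among them TTTCGGTTTC, which the IFIT1 stretch also holds, and had a log2 fold change of -0.42. The core was present in 23 of the 45 windows of the set (51.1%), against 1255 of all 35116 RefSeq windows (3.57%). By outcome it was in 8 of 9 windows of upregulated genes and in 5 of 11 of genes that rose by less than 2-fold. It was in 3 of 9 of genes that did not pass the test and in 4 of 7 of genes that fell by less than 2-fold. The window of IFNGR2 did not hold it, and 3 of 8 windows of untested genes did. The upregulated genes IRF7, OASL, USP18, MX2 and GBP2 had no window. Outside the set the core was not counted by outcome, so these shares do not link it to the response. OAS1 was the upregulated gene with a window but no match to this pattern. Just before its start OAS1 holds gaaacgaaa, where the GAAA repeats lie closer together than the search allowed, so the lack of a match does not show that the element is absent. The GAS core, searched as TTC, then 3 bases of any kind, then GAA, was in 10 of the 45 windows (22.2%) against 7.66% of all windows, and in 2 of the 9 of upregulated genes. Such matches describe letters in a window and were not tested as sites.

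Among the genes named IFI and IFITM, IFI6 had the most even response. IFI6 encodes a mitochondrial and endoplasmic reticulum protein with antiapoptotic and antiviral activity, on chromosome 1 (27666064 to 27672212), and 3 ISRE cores lie in the stretch shown above. IFI6 was at 12.6, 14.0 and 12.5 CPM in DMSO and at 45.8, 44.6 and 44.8 CPM in mocetinostat. The spread within each condition was small beside the difference (13.0 ± 0.809 and 45.1 ± 0.643 CPM, SD, n = 3 each), 3.49-fold on the fitted scale (log2 fold change 1.80 ± 0.17, adjusted p = 4.9e-15). A share of 23.1% of its exon bases is also annotated to LINC02574 on the same strand.

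IFI44, an interferon-induced antiviral gene, was at 4.43, 1.25 and 5.01 CPM in DMSO and at 6.15, 6.82 and 10.8 CPM in mocetinostat. The groups did not overlap, but DMSO replicate 2 lay well below its group. It was called upregulated (log2 fold change 1.04 ± 0.37, interval 0.29 to 1.78, adjusted p = 0.0126) and was not without DMSO replicate 2 (0.69, adjusted p = 0.108) or mocetinostat replicate 3 (0.75, adjusted p = 0.129), nor in DESeq2 (adjusted p = 0.107). IFI16, a nuclear sensor of DNA, fell by 0.61 ± 0.18 on the log2 scale (adjusted p = 0.0018), and by 0.07 with GAPDH scaling (adjusted p = 0.743). The entry blockers IFITM3 and IFITM2 were not past the test (-0.20, adjusted p = 0.182, and -0.19, adjusted p = 0.59), nor was IFI35 (-0.08, adjusted p = 0.782). Single libraries moved both ends of this group, with IFITM3 past the test without mocetinostat replicate 2 (-0.35, adjusted p = 0.0208) and IFI35 above 0 without DMSO replicate 1 (0.05) or mocetinostat replicate 3 (0.14). IFI44L had 8, 2 and 1 counts in DMSO and 9, 3 and 9 in mocetinostat, a ratio of 4.77 (2.20 to 10.9), and did not enter the test, but was called upregulated with no filter (2.09, adjusted p = 0.046) and in DESeq2 (2.41, adjusted p = 0.0458). IFITM1 had at most 6 counts in any sample and was not tested. IFI27 had 8, 5 and 6 counts against 18, 7 and 4 and was also not tested, but it was kept by the filter and called upregulated when DMSO replicate 1 (1.68, adjusted p = 0.0363), DMSO replicate 2 (1.93, 0.0113), DMSO replicate 3 (1.85, 0.0174) or mocetinostat replicate 3 (2.13, 0.00285) was left out. It was not called with no filter (adjusted p = 0.0651) or in DESeq2 (adjusted p = 0.0607).

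**Figure D2:**
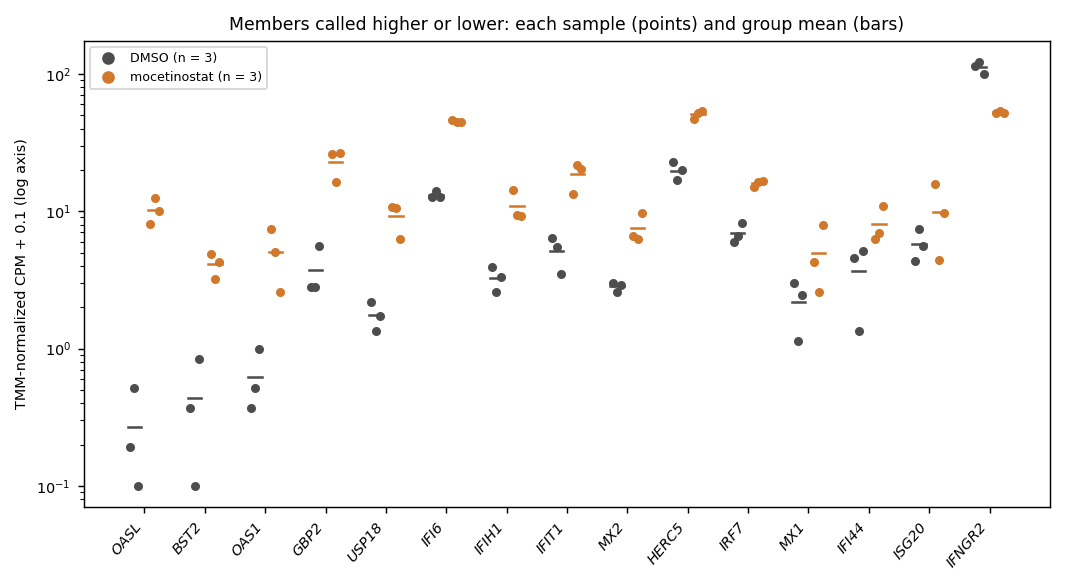
Level of each called gene in every sample, as TMM-scaled CPM plus 0.1 on a logarithmic axis, with points for the 3 DMSO and the 3 mocetinostat samples and bars for their means. The conditions overlap in MX1 and ISG20 and are apart in the other upregulated genes and in IFNGR2.

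ISG15 is a ubiquitin-like protein that is attached to other proteins, HERC5 is its main ligase, and USP18 removes it and also restrains the type I receptor. USP18, on chromosome 22 (18150118 to 18177397), was at 2.08, 1.25 and 1.62 CPM in DMSO and at 10.7, 10.5 and 6.22 CPM in mocetinostat. The lowest treated sample was about 3-fold above the highest control, and the fitted fold, of a gene that passed the filter through its treated samples, was 5.30 (log2 fold change 2.41 ± 0.40, interval 1.61 to 3.20, adjusted p = 2.46e-07). HERC5, on chromosome 4 (88457119 to 88506163), was at 22.6, 16.7 and 19.7 CPM in DMSO and at 47.2, 52.1 and 53.5 CPM in mocetinostat. It was called upregulated with no overlap (2.52-fold, log2 fold change 1.33 ± 0.16, adjusted p = 1.41e-11). Its neighbour and relative HERC6 rose by 0.96 ± 0.25 on the log2 scale (adjusted p = 0.000486), just inside 2-fold, and was beyond it without DMSO replicate 1 (1.06), DMSO replicate 3 (1.01) or mocetinostat replicate 1 (1.06).

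ISG15 itself was at 14.7, 18.1 and 21.8 CPM in DMSO and at 27.2, 25.4 and 25.3 CPM in mocetinostat. The groups did not overlap and it rose by less than 2-fold (0.54 ± 0.19, adjusted p = 0.0101), and it missed the threshold without DMSO replicate 1 (0.36, adjusted p = 0.109) or mocetinostat replicate 1 (0.48, adjusted p = 0.0724) and in DESeq2 (adjusted p = 0.117). From the list of other pathway genes, the activating enzyme gene UBA7 was called downregulated, at 8.41, 8.12 and 8.99 CPM in DMSO and 2.97, 3.10 and 4.56 CPM in mocetinostat (-1.29 ± 0.35, adjusted p = 0.00106). With GAPDH scaling UBA7 did not pass (-0.75, adjusted p = 0.0605). The conjugating enzyme gene UBE2L6 did not pass the test (adjusted p = 0.743).

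The GTPases form assemblies on viral nucleoprotein or on the membranes that hold pathogens. GBP2, a guanylate-binding protein gene on chromosome 1 (89106132 to 89150456), was at 2.71, 2.71 and 5.45 CPM in DMSO and at 25.8, 16.1 and 26.5 CPM in mocetinostat. Every treated sample was at least 2-fold above every control, and the fitted fold was 6.51 (log2 fold change 2.70 ± 0.27, interval 2.16 to 3.25, adjusted p = 4.22e-14), with 8.60% of its exon bases also annotated to GBP7. MX2, which restricts HIV, was at 2.89, 2.50 and 2.80 CPM in DMSO and at 6.54, 6.20 and 9.53 CPM in mocetinostat. It was upregulated 2.66-fold with no overlap (1.41 ± 0.38, adjusted p = 0.000974), a call that did not hold against a null of 2-fold (adjusted p = 0.215).

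MX1, the neighbour of MX2 and a broad antiviral gene, was at 2.89, 1.04 and 2.36 CPM in DMSO and at 4.16, 2.48 and 7.87 CPM in mocetinostat. Here the groups overlapped, since mocetinostat replicate 2 was below DMSO replicate 1. The call (1.13 ± 0.46, interval 0.22 to 2.04, adjusted p = 0.0266) was not made without DMSO replicate 2 (0.85, adjusted p = 0.124), mocetinostat replicate 1 (1.29, 0.0505) or mocetinostat replicate 3 (0.68, 0.294), nor in DESeq2 (adjusted p = 0.165). GBP1 rose slightly (0.34 ± 0.13, adjusted p = 0.0171) and GBP3 was slightly lower (-0.51 ± 0.22, adjusted p = 0.0367), and GBP3 turned to 0.035 with GAPDH scaling. GBP1 missed the threshold without DMSO replicate 2 (0.24, 0.167) or mocetinostat replicate 1 (0.25, 0.167). For GBP3 this was so without DMSO replicate 1 (0.0812), DMSO replicate 3 (0.0681), mocetinostat replicate 2 (0.071) or mocetinostat replicate 3 (0.0642).

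Of the other effectors, BST2 had the largest fold. BST2 encodes tetherin, which holds budding virus at the cell surface, on chromosome 19 (17402939 to 17405630), and its window held 2 overlapping ISRE matches, both GAAACTGAAA. It was counted 3, 0 and 5 times in DMSO and 24, 5 and 10 times in mocetinostat, that is 0.271, 0 and 0.737 CPM against 4.76, 3.10 and 4.14 CPM. The groups were apart, with a ratio of summed counts of 12.2 (5.61 to 30.1) and a log2 fold change of 3.48 ± 0.64 (adjusted p = 2.08e-06). ISG20, an RNA exonuclease gene, was at 4.25, 7.29 and 5.45 CPM in DMSO and at 15.7, 4.34 and 9.53 CPM in mocetinostat. The groups overlapped, with mocetinostat replicate 2 below 2 of the 3 controls. Its log2 fold change of 1.01 ± 0.31 (adjusted p = 0.00379) fell inside 2-fold without DMSO replicate 1 (0.79) or DMSO replicate 3 (0.98) and did not pass without mocetinostat replicate 1 (0.39, adjusted p = 0.447). The call was also lost in DESeq2 (0.85, adjusted p = 0.147), with no filter (0.77) and at equal depth (0.71, adjusted p = 0.345).

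SAMD9, which blocks poxvirus translation, rose (0.70 ± 0.16, adjusted p = 0.00014), and SAMD9L, next to it, did not pass (-0.19, adjusted p = 0.707). XAF1, a proapoptotic interferon-induced gene, went the other way at low counts, with 42, 6 and 14 in DMSO and 3, 1 and 2 in mocetinostat (3.80, 1.25 and 2.06 against 0.595, 0.620 and 0.829 CPM). The groups were apart but XAF1 was removed by the filter on low counts. With no filter it was at -2.12 (adjusted p = 0.0134) and in DESeq2 at -1.88 (adjusted p = 0.143), it was called downregulated without DMSO replicate 2 (-2.17), mocetinostat replicate 2 (-1.90) or mocetinostat replicate 3 (-2.05), and 38.3% of its exon bases lie under PRAL on the opposite strand. RSAD2, which encodes the antiviral enzyme viperin, had 1, 0 and 1 counts in DMSO and 1, 1 and 1 in mocetinostat, and its neighbour CMPK2 had 8, 2 and 4 against 8, 6 and 5 counts. Neither was tested in all 6 samples, and CMPK2 was called upregulated without DMSO replicate 1 (2.03, adjusted p = 0.0398), DMSO replicate 3 (1.78, 0.049) or mocetinostat replicate 1 (2.14, 0.0225), and not with no filter (adjusted p = 0.14) or in DESeq2 (adjusted p = 0.088).

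No gene of the TRIM, nuclear body and PARP9-DTX3L group was called in either direction. TRIM21, a cytosolic antibody receptor and ubiquitin ligase, rose (0.61 ± 0.24, adjusted p = 0.0244) in the fit to all samples. It did not pass without DMSO replicate 1 (0.43, 0.146), DMSO replicate 2 (0.57, 0.0581) or mocetinostat replicate 3 (0.36, 0.271). PML, the scaffold of nuclear bodies, was at -0.28 (adjusted p = 0.0378) and DTX3L, a ubiquitin ligase, at -0.32 (adjusted p = 0.0208), and both were above 0 with GAPDH scaling (0.25 and 0.22). PML missed the threshold without DMSO replicate 3 (0.0927) or mocetinostat replicate 3 (0.166), and DTX3L without mocetinostat replicate 3 (0.0785). PARP9, the partner of DTX3L, was at 0.36 (adjusted p = 0.0859) and passed without DMSO replicate 1 (0.56, adjusted p = 0.0129), SP100 was at -0.23 (adjusted p = 0.168), and TRIM22, with 13, 13 and 4 counts against 5, 1 and 0, was not tested.

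**Figure D3:**
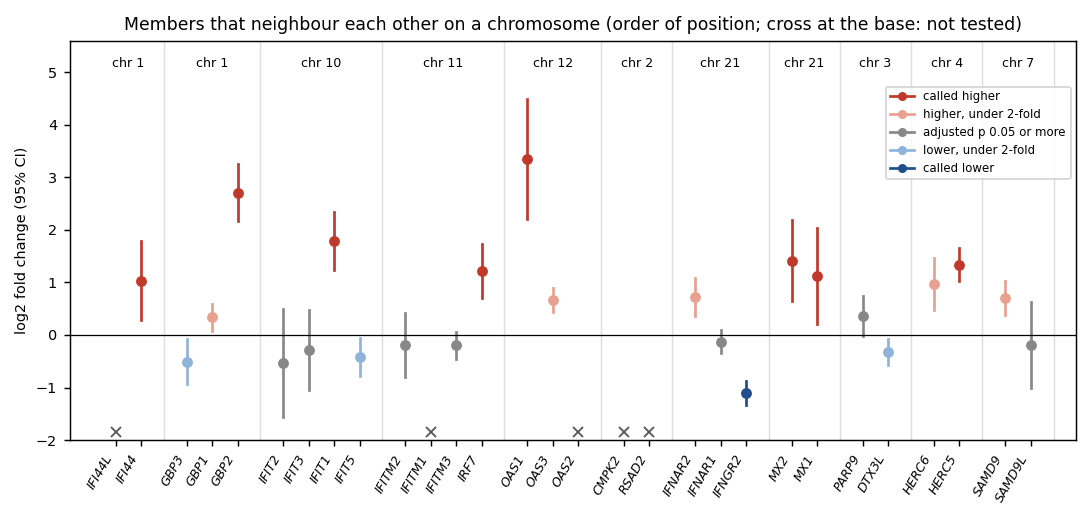
Log2 fold change of members that lie within 500 kb of each other, with 95% confidence intervals. Vertical lines separate the clusters of neighbours, genes are ordered along the chromosome and untested genes are marked by a cross at the base. GBP3, GBP1 and GBP2 are at -0.51, 0.34 and 2.70 in that order, and IFNAR2, IFNAR1 and IFNGR2 at 0.73, -0.13 and -1.10.

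Neighbouring genes of a cluster had unlike values in several places. On chromosome 21 (33205282 to 33479348) the 3 receptor genes IFNAR2, IFNAR1 and IFNGR2 were at 0.73, -0.13 and -1.10 on the log2 scale. On chromosome 1 (89006679 to 89150456) GBP3, GBP1 and GBP2 were at -0.51, 0.34 and 2.70. MX2 and MX1, at 1.41 and 1.13, and HERC6 and HERC5, at 0.96 and 1.33, were pairs whose members were both higher. The differences between neighbours were not tested.

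**Figure D4:**
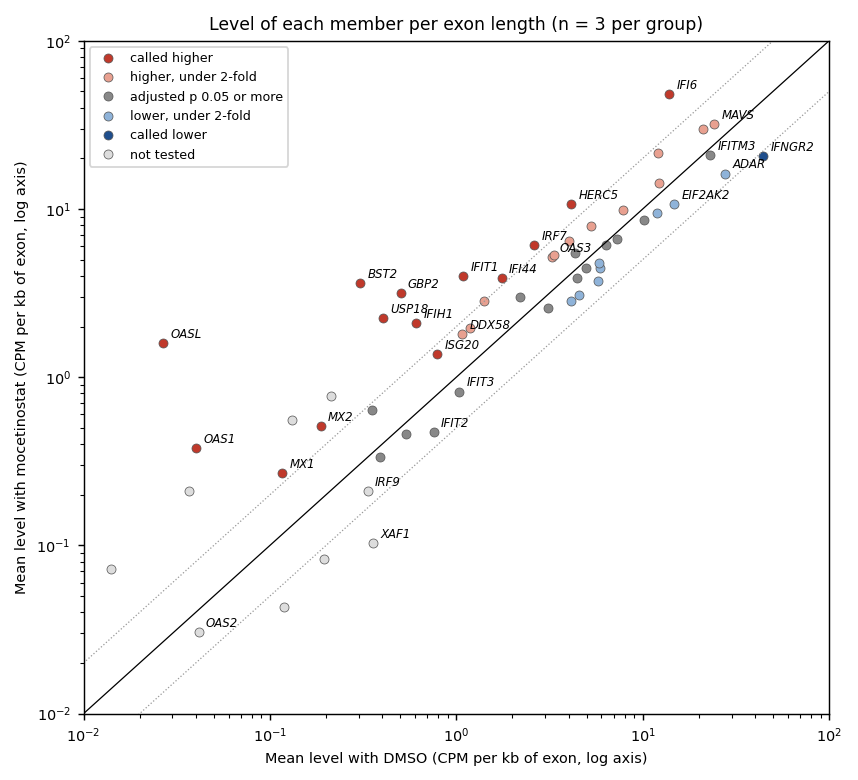
Mean CPM per kilobase of exon in DMSO (horizontal) and in mocetinostat (vertical), both on log scales, for each gene of the set but IFNB1, which had no counts, colored by the outcome of the edgeR test. The solid line marks equal levels and the dotted lines 2-fold differences. IFNGR2 is farthest right, at 44.2, and IFI6 is highest, at 48.1.

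Levels were compared between genes as CPM per kilobase of exon. In DMSO the most abundant were IFNGR2 at 44.2, ADAR at 27.8 and MAVS at 24.2, followed by IFITM3 at 23.1 and ISG15 at 21.0. In mocetinostat IFI6 was first at 48.1, up from 13.9, followed by MAVS at 31.8 and ISG15 at 29.9, with IFNGR2 at 20.6 and ADAR at 16.2. The 14 upregulated genes had a median control level of 0.555 per kilobase (0.0267 to 13.9), against 4.95 for the other 35 tested, and 11 of the 14 were below the median of the whole set, 2.20. The filter kept genes with at least 2.01 CPM, scaled by total counts alone, in 3 samples. Of the 14, OAS1, OASL and BST2 reached this in 0 DMSO samples, USP18 in 1 and IFI44 and MX1 in 2, so these 6 could be tested only because of their treated samples, which bears on the low control levels of the upregulated genes. Among the other 35 this was so for DHX58 and IFIT2.

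The wider pathway was read from a list of 42 further genes, 32 of which were tested. Of these 32, 7 were called upregulated (21.9%) and 2 downregulated (6.25%), beside the 20.2% and 8.18% of all genes, and with no limit on size 13 rose (40.6%, against 32.9% of all genes) and 6 fell (18.8%, against 31.4%). LAMP3, a lysosomal membrane protein gene of mature dendritic cells, had the largest change, from 0.905, 1.67 and 1.62 CPM in DMSO to 38.7, 44.0 and 42.7 CPM in mocetinostat (4.97 ± 0.27, adjusted p = 3.14e-27). IRF8, a factor of myeloid cells, went from 1.27, 0.833 and 2.80 CPM to 26.0, 25.4 and 32.3 CPM (4.06 ± 0.30, adjusted p = 3.52e-20). Both were low in every control and higher in every treated sample. LAMP3, IRF8, IFI30 and IFNLR1, 4 of the 7, reached the level of the filter in at most 1 DMSO sample and were tested only because of their treated samples. The other 5 upregulated genes were IFI30, a lysosomal thiol reductase, at 2.15, IFNLR1, the type III interferon receptor, at 1.86, SOCS3, an inhibitor of cytokine signaling, at 1.70, the helicase gene DDX60L at 1.41 and the scramblase gene PLSCR1 at 1.15 on the log2 scale (adjusted p = 0.000712, 2.68e-05, 1.87e-15, 3.35e-09 and 6.82e-10). PLSCR1 was just inside 2-fold without DMSO replicate 2 (0.96). Besides UBA7, the downregulated gene was TRIM14, a MAVS cofactor, which fell by 1.07 (adjusted p = 1.67e-10), and by 0.98 without mocetinostat replicate 1.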

How the data were processed

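One table of raw counts, with a row for every gene and a column for each of the 6 samples, was deposited by the authors. Per the labels and the study's methods, RNA was sequenced as single reads of 100 bases after ribosomal depletion, aligned to GRCh38 with STAR 2.6.1d and counted with featureCounts 1.6.4. Strand and multimapping settings are not given in the sources used here. Of the 59 genes, 9 have over 5% of their exon bases under another gene of the table on the opposite strand and 10 have over 5% of 100-base windows in another gene's transcript.

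From the counts, edgeR 4.0.16 (R 4.3.3) computed TMM factors, kept 13966 genes with filterByExpr (minimum count 10) and fitted a quasi-likelihood model with treatment as its only term. Alternatives were RLE, library-size and GAPDH scaling, no or a stricter filter, DESeq2 1.42.0, a test against a log2 fold change of 1, thinning to 1619344 counts, a replicate block and leaving out each sample. The edgeR and DESeq2 steps were run on simulated data with 200 genes changed. In the real data 4597 genes rose and 4388 fell, so the simulation did not check the scaling under so wide a response. Ratios of summed counts carry exact 95% intervals for counting error only, since reads have no molecular identifiers. Replicate pairs differed by more than sampling noise (chi-square per degree of freedom 1.93 to 7.95). Positions are from GENCODE 44. Sequences are from the RefSeq promoter table, read with Python 3.11.15.

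The genes and lists were chosen with earlier results of these data known. All 59 are accounted for by role. Values per sample are given for called genes, for IFNB1, IFNAR1, IFNAR2, STAT2, IRF9, DDX58, IFIH1, TLR3, MAVS, EIF2AK2 and ADAR and for the 3 most abundant per length in DMSO, and for some others chosen after their values were seen.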

Additional observations from a re-analysis of the deposited data

How the results depend on the processing

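In the main fit 14 of 49 tested genes of the set were called upregulated, beside 2827 of 13966 genes in all. With GAPDH scaling this became 24 of 49 (4425 of 13966 in all). It was 8 of 37 with at least 10 counts in every sample (1620 of 10876), where 7 of the 14 were not tested. The test against 2-fold gave 9 of 49 (2069 of 13966) and equal depth 8 of 41 (1891 of 11709). DESeq2 gave 12 of 56 (3375 of 22149) and no filter 11 of 58 (3201 of 40504). With a sample left out, 13 to 16 were called (2842 to 3216 in all). The number downregulated, 1, became 0 with GAPDH scaling, 3 with no filter (IFNGR2, ADAR and XAF1), 0 in the test against 2-fold and 0 at equal depth. With a sample left out it was 1 to 2, beside 1173 to 1267 among all genes. The further pathway genes gave 14 and 0 calls with GAPDH scaling, 4 and 0 with the stricter filter, 0 downregulated in the test against 2-fold and 1 at equal depth, and 7 to 8 and 1 to 2 with a sample left out. The median of the set was 0.92 with GAPDH scaling, 0.12 with no filter and 0.37 to 0.54 with a sample left out. With no filter the TMM factors were computed over 40504 genes, and log2 fold changes of the genes of the main fit shifted by a median of -0.25.

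With GAPDH scaling the sign turned for IFNAR1 (0.41), JAK2 (0.0050), IRF2 (0.33), IRF3 (0.26), TLR3 (0.30), EIF2AK2 (0.054), IFIT2 (0.016), IFIT3 (0.25), IFIT5 (0.12), IFI35 (0.46), IFITM2 (0.35), IFITM3 (0.34), GBP3 (0.035), SAMD9L (0.35), SP100 (0.31), PML (0.25) and DTX3L (0.22). It turned with no filter for JAK1 (-0.023), at equal depth for IRF2 (0.068), IRF3 (0.020) and IFITM2 (0.25), without DMSO replicate 1 for IFNAR1 (0.037, and -0.24 without DMSO replicate 3) and IFI35 (0.05), and without mocetinostat replicate 3 for IFI35 (0.14). Members that rose or fell in the fit to all samples missed the threshold with the same sign in DESeq2 (DDX58, GBP1, GBP3, IFI44, IFIT5, ISG15, ISG20, JAK1, MX1, PML and TRIM21), with no filter (DDX58, GBP1, IFI44, IFNAR2, ISG15, MAVS, MX1 and TRIM21), with the stricter filter (DTX3L, GBP3, IFIT5 and PML) and at equal depth (DDX58, DTX3L, EIF2AK2, GBP1, GBP3, HERC6, IFI16, IFI44, IFIT5, IFNAR2, IRF7, ISG15, ISG20, JAK1, JAK2, PML and TRIM21). Some members that did not pass in the fit to all samples did so in the edgeR test under other settings. STAT2 passed as higher with RLE (adjusted p = 0.043), library-size (0.0442) and GAPDH scaling (2.78e-06) and with the stricter filter (0.0177). With no filter, IFNAR1 (0.00201), IRF2 (0.0378), IRF3 (0.00553), IFITM3 (0.0028) and SP100 (0.00644) passed as lower. With GAPDH scaling, IFNAR1 (0.00216) and DHX58 (0.0275) passed as higher. The causes were not tested.

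No pairing by replicate number was seen, with correlations of 0.0078, 0.0116 and -0.0162 between the deviations of same-numbered samples. Counting noise pulls such correlations towards 0, so they cannot show whether same-numbered samples shared an experiment. With the replicate block 12 members were called upregulated and 1 downregulated, and ISG20 (0.93, adjusted p = 0.0153) and MX1 (1.10, adjusted p = 0.0533) were no longer called. Among all genes the block gave 2798 and 1133 calls in place of 2827 and 1142, no filter gave 3201 and 2120, the stricter filter 1620 and 704, the test against 2-fold 2069 and 465, and equal depth 1891 and 893. Depth limits the 10 untested genes, of which XAF1, IFI44L, IFI27 and CMPK2 were called under some alternatives, and the genes with few control reads.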

Other observations

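Some genes of the wider pathway had too few reads for the test and are given as counts. GBP5, a guanylate-binding protein gene near GBP2, had 2, 0 and 0 counts in DMSO and 26, 6 and 3 in mocetinostat. CXCL11, a chemokine gene induced by interferon gamma, had 0 counts in each DMSO sample and 5, 1 and 6 in mocetinostat, whereas CXCL10, its relative, had 0, 0 and 1 against 1, 0 and 0. TLR7, an endosomal receptor for single-stranded RNA, had 5, 1 and 0 counts against 8, 3 and 12. TLR9, a receptor for DNA, had 0 in every sample, but 99.67% of its exon bases are also annotated to another protein-coding gene on the same strand, so the 0 says little of its expression. The mocetinostat libraries were the shallower ones in total.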
